A study of Homo sapiens with 40 samples.

Results

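The genes described here are 9 secreted antagonists of Wnt signalling, SFRP1, SFRP2, SFRP4, SFRP5, FRZB, WIF1, DKK1, DKK2 and DKK3. They were chosen by name, with earlier results of these data known, and found by symbol among the 60664 genes of the count table. RNA was sequenced from 786-0 cells, an established line of clear cell renal cell carcinoma, carrying either a SETD2 knockout (KO) or wild-type SETD2 (WT). SETD2 encodes the histone methyltransferase that places trimethylation on lysine 36 of histone H3. The treated groups of each line received DAC (decitabine, an inhibitor of DNA methyltransferases) at 100 nM together with BMN (talazoparib, an inhibitor of PARP) at 10 nM, DAC alone at 100 nM, or BMN alone at 10 nM, and were collected on days 5, 16 and 26. Untreated control cells of each line were collected on day 0 only, so a difference from control also carries the time in culture. This gave 20 groups of 2 libraries, 40 in all. Each genotype is 1 line under the labels, and these do not say whether the 2 libraries of a group came from separate cultures, so the p-values measure the spread between these libraries, which may be technical.

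Wnt ligands bind Frizzled receptors and the co-receptors LRP5 and LRP6, which stabilises beta-catenin and turns on genes with TCF and LEF factors at their promoters. Secreted frizzled-related proteins (SFRP1, SFRP2, SFRP4, SFRP5 and FRZB, also called SFRP3) carry a Frizzled-like cysteine-rich domain and bind Wnt ligands outside the cell, as does WIF1 through its WIF domain. DKK1 and DKK2 act further on, by binding LRP5 and LRP6 together with KREMEN proteins, whereas DKK3 is a divergent family member for which binding to LRP6 is not established. Promoter methylation and low expression of SFRP, DKK and WIF1 genes are well known in kidney cancer, which makes the family a common readout of DNA methyltransferase inhibitors. No methylation was measured in these libraries.

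Total counts ran from 17833960 to 22631101 per library. In counts per 1000000 (CPM, on the TMM-adjusted library size), the kidney lineage factor PAX8 stood between 221 and 479 in the 20 group means. Other renal markers varied more, PAX2 between 7.97 and 87.3 CPM, the cadherin CDH6 between 32.6 and 575 CPM and CDH16 between 0.866 and 12.0 CPM. Of 10 blood and endothelial markers, the haemoglobin gene HBB had no count, the leukocyte gene PTPRC reached 0.250 CPM at most, and the highest group means were 2.70 CPM for PECAM1, 2.23 CPM for CD68 and 1.43 CPM for KDR. SETD2 itself averaged 127 ± 20.3 CPM in untreated KO cells and 139 ± 13.6 CPM in untreated WT cells (SD, n = 2 each), a log2 difference of -0.13 ± 0.07 (SE) that did not pass the test (edgeR adjusted p = 0.20). A gene-level count does not show whether the transcript encodes a working protein, so it does not check the KO label. Of the genes checked as drug readouts, DNMT3B was higher under DAC than under BMN in KO cells (log2 0.43 ± 0.06) and in WT cells (log2 0.60 ± 0.06), and UHRF1 likewise (0.15 ± 0.04 and 0.27 ± 0.04 in KO and WT cells), whereas DNMT1 passed in KO cells at log2 0.09 ± 0.04 (edgeR adjusted p = 0.046) and stood at -0.01 ± 0.04 in WT cells. Against control, the log2 differences of DNMT3B in KO cells were 0.24, -0.06 and -0.13 on days 5, 16 and 26 of DAC. With BMN they were -0.24, -0.25 and -0.75. UHRF1 in KO cells differed from control by 0.12, 0.19 and -0.21 on the same days of DAC, the last called lower. In WT cells DAC gave 0.71, 0.49 and 0.25 for DNMT3B and 0.48, 0.37 and 0.16 for UHRF1.

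Sequences are shown for DKK1, SFRP4 and SFRP2, the 3 antagonists with the largest changes under DAC for which a RefSeq promoter was used here. Each is the 250 bases before the RefSeq start, from 5′ to 3′ on the gene's strand (build GRCh38.p14), and capitals mark CpG, the dinucleotide at which DNA methyltransferases act.
DKK1 (chr10:52314031-52314280, plus strand): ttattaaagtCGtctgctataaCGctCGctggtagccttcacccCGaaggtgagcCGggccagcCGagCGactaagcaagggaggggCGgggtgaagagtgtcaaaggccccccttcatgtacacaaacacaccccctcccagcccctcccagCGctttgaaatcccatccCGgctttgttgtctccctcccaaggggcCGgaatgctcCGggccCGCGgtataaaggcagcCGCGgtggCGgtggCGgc
SFRP4 (chr7:37916818-37917067, minus strand): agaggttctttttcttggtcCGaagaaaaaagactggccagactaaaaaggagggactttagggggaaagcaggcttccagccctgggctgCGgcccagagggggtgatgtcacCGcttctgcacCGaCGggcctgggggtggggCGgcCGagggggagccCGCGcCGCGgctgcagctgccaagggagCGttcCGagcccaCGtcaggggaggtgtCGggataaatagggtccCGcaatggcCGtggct
SFRP2 (chr4:153789084-153789333, minus strand): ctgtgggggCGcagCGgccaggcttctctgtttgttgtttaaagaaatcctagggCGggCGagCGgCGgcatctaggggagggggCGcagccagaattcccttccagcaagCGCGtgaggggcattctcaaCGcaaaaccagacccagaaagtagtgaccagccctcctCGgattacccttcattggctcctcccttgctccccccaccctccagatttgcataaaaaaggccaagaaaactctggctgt
The DKK1 window held 18 CpG, the SFRP4 window 17 and the SFRP2 window 11, against a median of 11 over 35114 RefSeq promoters of the same length. Among the members at or near 0 counts, the WIF1 window held 27 CpG, that of SFRP5 21 and that of FRZB 11. No window of SFRP1, DKK2 or DKK3 was used here. The letters CTTTGAA, or the same with the last 2 letters as AT, TA or TT, which make up the core bound by TCF and LEF factors, were searched on both strands, as was TATAAA, and no match of one overlapped a match of the other in the DKK1 window. They were found at 2 places in the DKK1 window, beginning 95 and 76 bases before the start, and in none of the other 5 windows, while 12% of all promoters held at least 1 match. A TATAAA box lay 30 bases before the DKK1 start, and 10.7% of promoters held those letters. In the count table the SFRP4 gene reaches from 37905932 to 38025695 on chromosome 7, so the RefSeq start lies inside it and other annotated starts lie further upstream.

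DKK3 was the most abundant of the family. Per kilobase of exon, group means of DKK3 ran from 2.52 to 13.4 CPM per kb, those of SFRP4 from 0 to 2.29, those of DKK1 from 0 to 1.05 and those of SFRP2 from 0.0229 to 0.512. Over all 40 libraries the raw counts summed to 46029 for DKK3, 1315 for SFRP4, 414 for DKK1, 296 for SFRP2, 92 for FRZB, 5 for WIF1 and 4 for SFRP5. SFRP1 and DKK2 had no count in any library, although genes of chromosome 8, where SFRP1 lies, held 3.56% of all counts. A count of 0 allows up to 3 counts in a library, which corresponds to 0.136 to 0.167 CPM depending on the group, and covers counting error only. Of the 9 genes, 4 passed the filter on low counts (SFRP2, SFRP4, DKK1 and DKK3) and were tested among 22527 genes. DKK1 passed it through its counts in the groups that received DAC, and SFRP2 and SFRP4 mainly through groups that did not, so a difference between such groups was built into their passing.

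**Figure D1:**
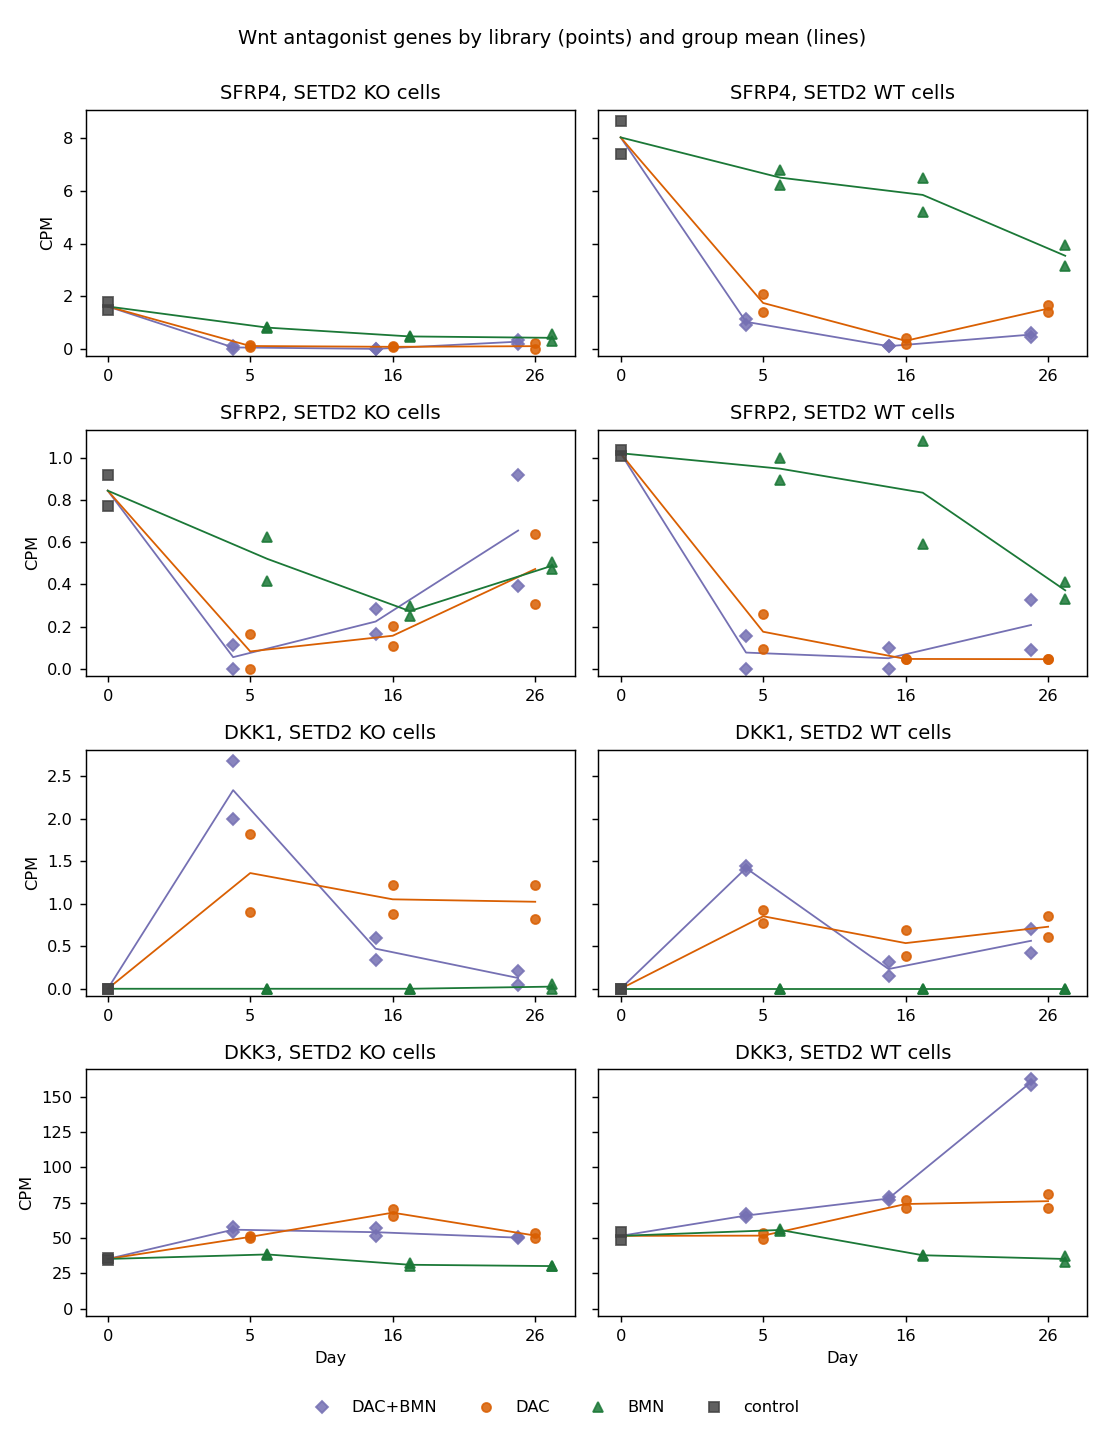
CPM of SFRP4, SFRP2, DKK1 and DKK3 (vertical axes, linear, 1 scale per gene) against day in SETD2 KO cells (left) and SETD2 WT cells (right). Points are libraries, lines join the means of 2 libraries, and each line begins at the untreated control of day 0. SFRP4 sits low in both groups that received DAC, as does SFRP2 except on day 26 in KO cells. DKK1 sits at or near 0 without DAC, and DKK3 reaches its highest level, 160 CPM, in WT cells given DAC+BMN for 26 days.

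The first comparison sets KO against WT cells before treatment. SFRP4, which binds Wnt ligands, had 1.46 and 1.76 CPM in KO controls, against 7.41 and 8.65 CPM in WT controls. The 2 lines did not overlap, and SFRP4 was lower in KO cells by 2.31 on the log2 scale (log2 -2.31 ± 0.29 SE, 95% interval -2.90 to -1.73, edgeR adjusted p = 8.8e-08). EPDR1, on the opposite strand of the SFRP4 locus with 0 shared exon bases, averaged 176 ± 6.58 CPM in KO controls and 256 ± 16.4 CPM in WT controls. DKK3 had 34.8 and 35.7 CPM in KO controls, against 48.8 and 54.3 CPM in WT controls, and was also lower in KO cells (log2 -0.55 ± 0.08, edgeR adjusted p = 1.7e-06). SFRP2 did not pass: it had 17 and 14 counts in KO controls, against 20 and 20 counts in WT controls, with a log2 difference between -1.39 and 0.85 (95% interval). DKK1 had 0 counts in all 4 control libraries. Thus 2 of the 4 tested members were called, both lower in KO cells, in a comparison that called 27.2% of all tested genes, 13.4% higher and 13.9% lower in KO cells. With 1 line of each genotype, the knockout and any other difference between the lines cannot be told apart, and in bulk RNA fewer expressing cells and less RNA per cell cannot be told apart either.

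DKK1, which blocks the LRP5 and LRP6 co-receptors, was counted almost only in cells that received DAC. In KO cells given DAC+BMN, DKK1 had 36 and 48 counts on day 5, 11 and 6 counts on day 16, and 1 and 4 counts on day 26. KO cells given DAC alone had 33 and 17 counts on day 5, 16 and 24 on day 16, and 16 and 23 on day 26. Under BMN alone the 6 KO libraries held 1 DKK1 count in all, and the 2 untreated KO libraries held 0. All 12 KO libraries with DAC had at least 1 count, and those given DAC alone did not overlap with the 8 libraries without it. In WT cells given DAC+BMN, DKK1 had 26 and 28 counts on day 5, 6 and 3 on day 16, and 9 and 16 on day 26. WT cells given DAC alone had 15 and 20 counts on day 5, 15 and 8 on day 16, and 13 and 19 on day 26. The 6 WT libraries given BMN and the 2 untreated WT libraries had 0 counts. The WT libraries with DAC and those without it therefore did not overlap.

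Against a floor of 3 counts per library for controls at 0, DKK1 was at least 8.31-fold higher on day 5, 6.42-fold on day 16 and 6.25-fold on day 26 in KO cells given DAC. The bounds for WT cells given DAC were at least 5.56-fold, 3.50-fold and 4.76-fold higher on days 5, 16 and 26. With DAC+BMN the bound was at least 14.3-fold on day 5 and 2.88-fold on day 16 in KO cells, and at least 9.25-fold, 1.51-fold and 3.68-fold on days 5, 16 and 26 in WT cells. The edgeR adjusted p of these 11 differences lay between 1e-07 and 0.0074. Since DKK1 passed the filter on low counts through groups that received DAC, a difference was partly built into its being tested. Without replicate 1 of WT DAC+BMN day 16, the DKK1 call of that day was lost (edgeR adjusted p = 0.054). On day 26 of DAC+BMN in KO cells DKK1 stayed under the floor at a mean of 0.127 CPM and did not pass (edgeR adjusted p = 0.056), although it passed without replicate 1 of that group (edgeR adjusted p = 0.039). PRKG1-AS1, an antisense RNA that shares 227 exon bases with DKK1, had at most 7 counts in any group of 2 libraries, and the counting used strand.

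Between days 26 and 5, DKK1 passed the test with DAC+BMN in both lines. In KO cells given DAC+BMN it averaged 0.127 ± 0.109 CPM on day 26 and 2.33 ± 0.486 CPM on day 5 (SD, n = 2 each), a log2 difference of -4.15 ± 0.60 (edgeR adjusted p = 2.7e-06). Leaving out a day 26 library moved that value to between -5.40 and -3.48, and the call held. In WT cells given DAC+BMN it averaged 0.564 ± 0.203 CPM on day 26 and 1.42 ± 0.0281 CPM on day 5 (log2 -1.32 ± 0.48, edgeR adjusted p = 0.034), and this call was lost without replicate 1 of day 26 (0.23) and without either library of day 5 (0.092 and 0.11). With DAC alone the difference between day 26 and day 5 did not pass in KO cells (95% interval -1.35 to 0.53) or in WT cells (-1.23 to 0.78).

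SFRP4 was lower than control in every group that received DAC. In KO cells given DAC+BMN it had 0.111 and 0 CPM on day 5, 0 in both libraries of day 16, and 0.344 and 0.204 CPM on day 26. KO cells given DAC alone had 0.165 and 0.0533 CPM on day 5, 0.0549 and 0.102 CPM on day 16, and 0.206 and 0 CPM on day 26. KO cells given BMN alone had 0.781 and 0.834 CPM on day 5, 0.448 and 0.497 on day 16, and 0.284 and 0.555 on day 26. All 18 treated KO libraries were below the 2 untreated ones, which had 1.46 and 1.76 CPM. In WT cells given DAC+BMN SFRP4 had 1.13 and 0.924 CPM on day 5, 0.100 and 0.104 on day 16, and 0.467 and 0.619 on day 26. WT cells given DAC alone had 1.40 and 2.09 CPM on day 5, 0.185 and 0.427 on day 16, and 1.40 and 1.66 on day 26. WT cells given BMN alone had 6.22 and 6.78 CPM on day 5, 5.21 and 6.48 on day 16, and 3.14 and 3.93 on day 26, so no WT library with DAC reached the level of a WT library without it, where the untreated cells had 7.41 and 8.65 CPM.

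Relative to control, SFRP4 fell by 3.82 on the log2 scale on day 5 and by 3.87 on day 26 in KO cells given DAC (SE 0.56 at each), with edgeR adjusted p of 1.4e-06 and 8.4e-07. On day 16, 3 counts in KO cells given DAC stood against 59 in KO controls, a ratio of 0.0493 (95% counting interval 0.00988 to 0.151, edgeR adjusted p = 5.1e-07). On day 5 of DAC+BMN, 2 counts stood against 59 (ratio 0.0345, counting interval 0.00409 to 0.130, edgeR adjusted p = 2.3e-07). With SFRP4 at 0 on day 16 of DAC+BMN, KO cells were at least 9.63-fold lower than control, and by day 26 the fall was 2.52 ± 0.45 (edgeR adjusted p = 5.7e-05). The 2 libraries of KO DAC day 26 differed most: the log2 value was -7.99 without replicate 1 and -2.93 without replicate 2, and both kept the call. It was -7.99 without replicate 1 and -3.79 without replicate 2 of KO DAC+BMN day 5, and -4.76 without replicate 1 of KO DAC day 5, all still called; a value of -7.99 is a fit to a lone library at 0 counts. Over all genes the median log2 difference of KO DAC day 26 from control was 0.11.

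WT cells showed the same direction, with the lowest SFRP4 on day 16. There it fell by 6.21 ± 0.45 on the log2 scale with DAC+BMN and by 4.69 ± 0.37 with DAC, against falls of 2.96 ± 0.31 and 2.19 ± 0.28 on day 5 and of 3.87 ± 0.33 and 2.39 ± 0.28 on day 26 (edgeR adjusted p between 1.6e-13 and 1.8e-07). Without replicate 2 of WT DAC day 16 the log2 value of that group was -5.39. Of 11 renal markers, 4 were higher and 4 lower in WT DAC+BMN day 16 than in WT controls, beside 43% of all tested genes called. CA12 stood higher, at 775 ± 15.4 CPM in that group and 114 ± 5.57 CPM in WT controls, and so did EPAS1 (387 ± 9.22 and 175 ± 8.70 CPM). Among the lower ones, CDH6 averaged 32.6 ± 2.12 CPM in that group and 567 ± 48.9 CPM in WT controls, PAX2 7.97 ± 0.985 and 57.2 ± 9.74 CPM, and CDH16 1.59 ± 0.0276 and 12.0 ± 2.54 CPM. PAX8 did not pass (423 ± 27.4 and 376 ± 35.5 CPM). Their part in the SFRP4 result was not tested. With BMN alone SFRP4 passed on days 16 and 26 in KO cells and on day 26 in WT cells. In KO cells the difference from control was -0.99 on day 5 (edgeR adjusted p = 0.083), -1.75 ± 0.41 on day 16 (0.0020) and -1.94 ± 0.42 on day 26 (0.00046). In WT cells it was -0.30 on day 5 (0.92), -0.46 on day 16 (0.31) and -1.18 ± 0.26 on day 26 (0.0012). Within WT BMN, SFRP4 was lower on day 26 than on day 5 (log2 -0.88 ± 0.26, edgeR adjusted p = 0.015), and this call was lost without replicate 1 of day 26 (0.16) and without either library of day 5 (0.052 and 0.10).

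Ordered by group mean, SFRP4 was highest in WT controls (8.03 ± 0.878 CPM), followed by WT BMN on day 5 (6.50 ± 0.394), day 16 (5.84 ± 0.898) and day 26 (3.53 ± 0.556). The first 2 of these did not overlap, those of days 5 and 16 of WT BMN did, and day 26 lay below both. Next came WT DAC day 5 (1.74 ± 0.490), KO controls (1.61 ± 0.217) and WT DAC day 26 (1.53 ± 0.181), whose libraries overlapped. The other 13 groups averaged between 0 and 1.03 CPM.

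SFRP2, another Wnt-binding member, was also lower under DAC, at counts that left wide errors. In KO cells given DAC+BMN it had 2 and 0 counts on day 5, 3 and 5 on day 16, and 8 and 18 on day 26. KO cells given DAC alone had 3 and 0 counts on day 5, 2 and 4 on day 16, and 6 and 12 on day 26, and those given BMN had 8 and 12, 5 and 6, and 10 and 10 counts on days 5, 16 and 26. KO controls had 17 and 14 counts, so the libraries of day 26 with DAC+BMN overlapped with control while those of days 5 and 16 did not. WT cells given DAC+BMN had 0 and 3 counts on day 5, 0 and 2 on day 16, and 7 and 2 on day 26. WT cells given DAC alone had 5 and 2 counts on day 5, and 1 count in each library of days 16 and 26. Under BMN, WT cells had 17 and 22 counts on day 5, 12 and 21 on day 16, and 6 and 8 on day 26, against 20 and 20 counts in WT controls. No WT library with both drugs or with DAC had more SFRP2 than the lowest untreated or day 5 and day 16 BMN library.

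In WT cells SFRP2 passed in all 6 comparisons of DAC or DAC+BMN with control. The fall was 2.53 ± 0.69 on the log2 scale on day 5 of DAC, and a ratio of 0.0458 (95% counting interval 0.00537 to 0.177) on day 16 and of 0.0448 (0.00524 to 0.173) on day 26. With DAC+BMN the ratios were 0.0771 (0.0153 to 0.242) on day 5 and 0.0501 (0.00586 to 0.193) on day 16, and on day 26 the fall was 2.28 ± 0.66. These 6 had edgeR adjusted p between 0.00014 and 0.0052. The call of WT DAC day 5 was lost without its replicate 2 (0.098), and that of WT DAC+BMN day 26 without its replicate 2 (0.097). Leaving out 1 library moved other fitted folds by over 1.5 times with the call kept. The log2 value went to -3.37 without replicate 1 of WT DAC day 5, and to -2.68 and -7.34 without replicates 1 and 2 of WT DAC+BMN day 5. With DAC+BMN it also went to -3.27 and -7.34 without replicates 1 and 2 of day 16, and to -3.44 without replicate 1 of day 26. Values below -7 are fits to a lone library at 0 counts.

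In KO cells SFRP2 passed on days 5 and 16 only. The ratio to control was 0.0961 (0.0188 to 0.308, edgeR adjusted p = 0.0019) on day 5 of DAC and 0.0657 (0.00762 to 0.258, edgeR adjusted p = 0.00064) on day 5 of DAC+BMN. On day 16 the falls were 2.37 ± 0.73 with DAC (edgeR adjusted p = 0.0097) and 1.89 ± 0.69 with DAC+BMN (edgeR adjusted p = 0.027). On day 26 the differences from control were -0.83 with DAC (95% interval -2.07 to 0.40) and -0.37 with DAC+BMN (-1.54 to 0.81). Leaving out a library ended several of these calls: KO DAC day 5 without its replicate 2 (0.055), KO DAC day 16 without its replicate 1 (0.091), and KO DAC+BMN day 16 without any 1 of the 4 libraries of the comparison (0.053 to 0.17). The day 5 log2 values, fitted at -3.28 with DAC and -3.78 with DAC+BMN, became -7.07 without replicate 1 of either group and -2.31 and -2.86 without replicate 2 of DAC and of DAC+BMN.

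SFRP2 was then higher on day 26 than on day 5 in KO cells, with 18 counts on day 26 and 3 on day 5 of DAC (ratio 5.79, counting interval 1.69 to 30.7, edgeR adjusted p = 0.032) and with 26 and 2 counts on days 26 and 5 of DAC+BMN (ratio 11.7, 2.93 to 102, edgeR adjusted p = 0.0029). The first of these was lost without replicate 2 of day 26 (0.23), without replicate 2 of day 5 (0.26) and with DESeq2 (0.052), and the second without replicate 2 of either day (0.061 and 0.058). The log2 values of 2.45 and 3.41 became 6.24 and 6.70 without replicate 1 of day 5, where the remaining library was at 0 counts. BMN alone gave no SFRP2 call in either line, with the lowest adjusted p on day 16 in KO cells (log2 -1.60, edgeR adjusted p = 0.070) and on day 26 in WT cells (log2 -1.44, 0.089).

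DKK3 moved the other way from SFRP4 and SFRP2 under DAC. In KO cells given DAC+BMN it had 57.7 and 54.2 CPM on day 5, 57.1 and 51.3 on day 16, and 50.9 and 49.7 on day 26. KO cells given DAC alone had 50.1 and 51.6 CPM on day 5, 70.6 and 65.4 on day 16, and 50.1 and 53.4 on day 26. All 12 of these libraries were above the KO controls at 34.8 and 35.7 CPM. KO cells given BMN alone had 38.1 and 38.8 CPM on day 5, 30.0 and 32.2 on day 16, and 30.0 and 30.3 on day 26. In WT cells given DAC+BMN DKK3 had 65.0 and 66.9 CPM on day 5, 77.1 and 78.9 on day 16, and 158 and 163 on day 26. WT cells given DAC alone had 49.7 and 53.8 CPM on day 5, 71.1 and 77.1 on day 16, and 71.3 and 80.9 on day 26. WT cells given BMN alone had 54.9 and 56.6 CPM on day 5, 37.6 and 38.1 on day 16, and 32.8 and 37.6 on day 26. WT controls had 48.8 and 54.3 CPM, which overlapped with day 5 of DAC only.

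Among the 18 comparisons with control the rise of DKK3 was largest in WT cells given DAC+BMN for 26 days (log2 1.64 ± 0.08, 95% interval 1.48 to 1.79, edgeR adjusted p = 2.2e-18), after 0.35 ± 0.08 on day 5 and 0.60 ± 0.08 on day 16. DAC alone in WT cells gave 0.00 ± 0.08 on day 5 (95% interval -0.16 to 0.16), 0.52 ± 0.08 on day 16 and 0.56 ± 0.08 on day 26. In KO cells the rise was 0.67 ± 0.08, 0.62 ± 0.08 and 0.51 ± 0.08 on days 5, 16 and 26 of DAC+BMN, and 0.53 ± 0.08, 0.95 ± 0.08 and 0.56 ± 0.08 on the same days of DAC. These rises had edgeR adjusted p of 0.00040 or below.

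With BMN alone DKK3 was lower on days 16 and 26 in WT cells and on day 26 in KO cells. In WT cells it fell by 0.45 ± 0.08 on day 16 (edgeR adjusted p = 0.0050) and by 0.55 ± 0.08 on day 26 (7.4e-06), and in KO cells by 0.22 ± 0.08 on day 26 (0.037). The call of KO BMN day 26 was lost without any 1 of its 4 libraries (0.084 to 0.14) and without the filter on low counts (0.12). That of WT BMN day 16 was lost without either of its own libraries (0.12 and 0.11) and without replicate 2 of WT control (0.21). Fitted on the libraries of the contrast alone, all 3 missed the threshold (0.079, 0.50 and 0.082 for KO day 26, WT day 16 and WT day 26).

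Within a treatment, DKK3 was higher on day 26 than on day 5 in WT cells given DAC+BMN (log2 1.28 ± 0.08, edgeR adjusted p = 6.1e-15) and DAC (0.56 ± 0.08, 1.8e-06). It was lower on day 26 in WT cells given BMN (-0.66 ± 0.08, 4.5e-07) and in KO cells given BMN (-0.35 ± 0.08, 0.0027). In KO cells the difference did not pass with DAC (95% interval -0.14 to 0.19) or with DAC+BMN (-0.31 to 0.01); the last passed with DESeq2 size factors (log2 -0.21, edgeR adjusted p = 0.043). USP47 lies on the opposite strand and shares 5681 of the 11958 exon bases of DKK3, and its group means ran from 73.8 to 126 CPM. On day 26 of DAC+BMN in WT cells USP47 stood at 110 ± 5.57 CPM, against 95.7 ± 16.2 CPM in WT controls, and its part in the DKK3 counts was not tested. In that same group the endothelial marker PECAM1 had 119 counts, against 3 in WT controls (edgeR adjusted p = 2.8e-05). PECAM1 had passed the filter on low counts through groups with DAC. The endothelial markers VWF (5 and 5 counts) and KDR (26 and 9 counts) did not pass the test in WT DAC+BMN day 26 (edgeR adjusted p = 0.92 and 0.14). Renal markers moved both ways: PAX2 averaged 9.16 ± 2.12 CPM there and 57.2 ± 9.74 CPM in WT controls, and CA12 284 ± 9.38 and 114 ± 5.57 CPM. The part of these changes in the DKK3 result was not tested either.

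**Figure D2:**
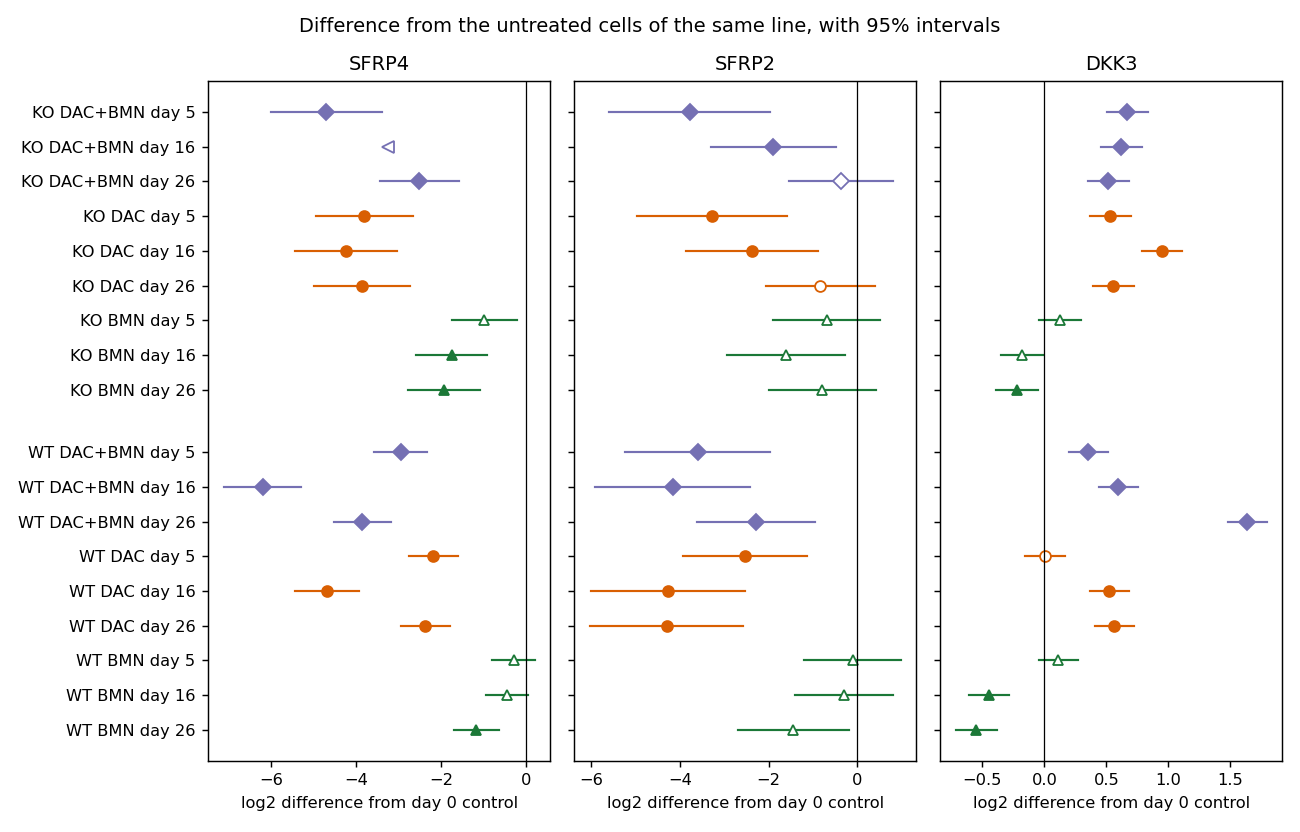
Log2 difference from the untreated control of the same line (horizontal axes) for SFRP4, SFRP2 and DKK3 in the 18 treated groups, KO rows above WT rows. Symbols are edgeR estimates with 95% intervals, filled where the adjusted p was below 0.05; the open triangle pointing left marks the bound of at least 9.63-fold lower SFRP4, at 0 counts. SFRP4 and SFRP2 lie left of 0 under DAC and DAC+BMN, and DKK3 lies furthest right, at 1.64, in WT DAC+BMN day 26.

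The remaining 5 genes stayed near or at 0. FRZB had 92 counts over 30 of the 40 libraries and 12 at most. In KO cells it had 19 counts over the 6 libraries with DAC+BMN, 17 with DAC, 8 with BMN and 1 over the 2 controls, and 12 of the 19 came from 1 library of day 5. In WT cells it had 20 counts with DAC+BMN, 21 with DAC, 6 with BMN and 0 in the controls. The summed ratio of DAC to BMN was 3.25 in WT cells (95% counting interval 1.27 to 9.84) and 2.25 in KO cells (0.919 to 6.02), and the libraries of both treatments overlapped in both lines. WIF1 had 5 counts, 3 of them in KO DAC+BMN day 5 replicate 1 and 1 each in 2 KO libraries given DAC. SFRP5 had 4 counts, 3 in that same KO DAC+BMN library and 1 in a KO library given DAC on day 5. No WT library had a count of either gene, and SFRP1 and DKK2 had none in any library. All 5 genes failed the filter on low counts. Fitted without that filter, FRZB passed against control in WT DAC day 16 and in WT DAC+BMN day 5, with 10 counts against 0 in each (edgeR adjusted p = 0.037 and 0.024), and in none of the other 16 comparisons with control. It did not pass for DAC against BMN in KO cells (edgeR adjusted p = 0.38) or WT cells (0.13).

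**Figure D3:**
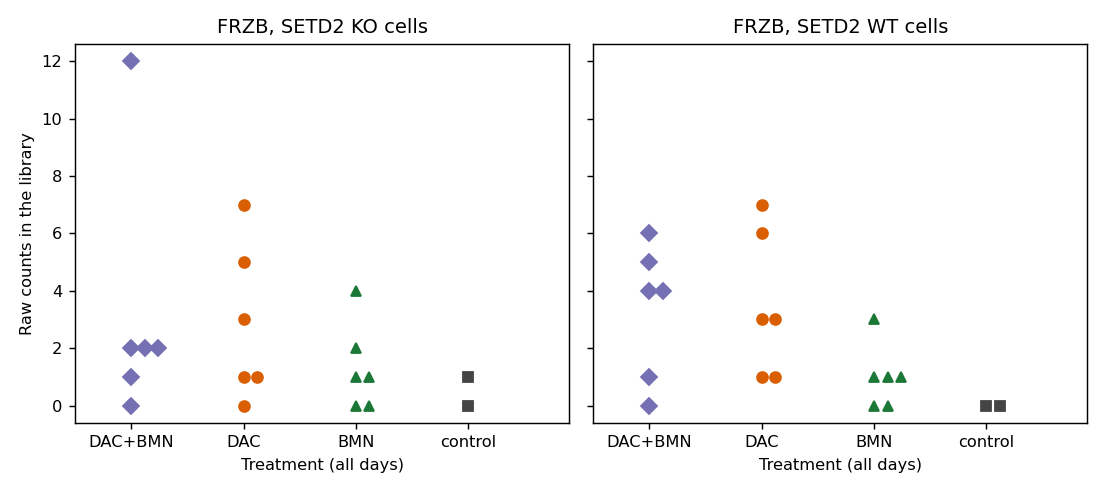
Raw FRZB counts per library (vertical axis) by treatment in SETD2 KO cells (left) and SETD2 WT cells (right), all days together. Each point is 1 library, and equal counts are drawn side by side. Libraries with DAC reach up to 12 counts and those with BMN up to 4, with overlap in both lines.

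Counted over the 4 tested members, the comparisons with control ran as follows. In KO cells, DAC+BMN called 4, 4 and 2 members on days 5, 16 and 26, while 49.2%, 42.6% and 34.7% of all tested genes were called. DAC called 4, 4 and 3 on the same days in KO cells, beside 35.4%, 37.7% and 47.2% of all genes, and BMN called 0, 1 and 2, beside 11.7%, 25.5% and 33.1%. In WT cells, DAC+BMN called 4 members on each of days 5, 16 and 26, beside 39.5%, 43% and 41.1% of all genes. DAC called 3, 4 and 4 in WT cells, beside 27.8%, 33.5% and 31.9%, and BMN called 0, 1 and 2, beside 0.186%, 0.684% and 23%. Between day 26 and day 5 of a treatment, 2 members were called in KO DAC+BMN, 1 in KO DAC and 1 in KO BMN, beside 42.7%, 35.9% and 18.3% of all genes, and 2 in WT DAC+BMN, 1 in WT DAC and 2 in WT BMN, beside 35.9%, 21.7% and 22%. The filter fixes part of these counts, and the treated groups of a line share their 2 control libraries.

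DAC and BMN were collected on the same days, so their comparison, averaged over days 5, 16 and 26, does not carry the time since the control. In KO cells DAC gave lower SFRP4 than BMN (mean 0.0968 CPM with DAC and 0.566 CPM with BMN, log2 -2.41 ± 0.40, edgeR adjusted p = 6.2e-06) and lower SFRP2 (0.237 and 0.428 CPM, log2 -1.13 ± 0.47, 0.042). DKK3 was higher with DAC in KO cells (56.9 and 33.2 CPM, log2 0.77 ± 0.05, 8.4e-16). DKK1 had 129 counts with DAC and 1 with BMN (ratio 136, counting interval 24.1 to 5430, edgeR adjusted p = 3.1e-10). The SFRP2 call in KO cells was lost with DESeq2 (0.052) and without replicate 2 of DAC day 5, replicate 1 of DAC day 16 or day 26, replicate 2 of BMN day 5, or any library of BMN days 16 and 26 (edgeR adjusted p between 0.057 and 0.15). Without replicate 1 of DAC day 5 its log2 value was -2.40, and that of SFRP4 was -3.79 without replicate 1 of DAC day 26. In WT cells DAC gave lower SFRP4 (1.19 and 5.29 CPM with DAC and BMN, log2 -2.44 ± 0.19, 7.7e-13), lower SFRP2 (0.0894 and 0.719 CPM, log2 -3.09 ± 0.50, 3.9e-06) and higher DKK3 (67.3 and 42.9 CPM, log2 0.66 ± 0.05, 3.5e-14), and DKK1 was at least 4.62-fold higher (8.1e-09). All 4 tested members were called in both lines, where 51.5% of all genes in KO cells (28.5% higher and 23% lower) and 42.7% in WT cells (23.3% higher and 19.4% lower) were called. This count was partly fixed in advance by the filter on low counts. DKK1 passed that filter through groups with DAC, and SFRP2 and SFRP4 mainly through groups without it.

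Adding BMN to DAC changed fewer members. In KO cells DKK1 was lower with DAC+BMN than with DAC over the mean of log2 values of the 3 days (log2 -1.11 ± 0.32, edgeR adjusted p = 0.012), although it was at 2.33 and 1.36 CPM with DAC+BMN and DAC on day 5, at 0.471 and 1.05 on day 16, and at 0.127 and 1.02 on day 26. This call was lost without replicate 1 of KO DAC day 5 (0.059) and without replicate 1 of KO DAC+BMN day 26 (0.072). SFRP4 (95% interval -2.58 to 0.38), SFRP2 (-1.20 to 1.49) and DKK3 (-0.17 to 0.02) did not pass in KO cells. On days 5, 16 and 26 the SFRP4 interval rests on 2, 0 and 11 counts with DAC+BMN and on 4, 3 and 4 with DAC. With a group at 0 counts, that interval depends on a fit to zeros. In WT cells SFRP4 was lower with DAC+BMN than with DAC (0.557 and 1.19 CPM, log2 -1.26 ± 0.30, edgeR adjusted p = 0.0020), a call lost without replicate 2 of WT DAC day 16 (0.062). DKK3 was higher with DAC+BMN in WT cells (101 and 67.3 CPM, log2 0.50 ± 0.04, 5.7e-11), while SFRP2 (-1.10 to 1.81) and DKK1 (-0.92 to 0.36) did not pass. The combination thus called 1 of the 4 tested members in KO cells, where 22.8% of all genes were called (10.9% higher and 11.8% lower), and 2 in WT cells, where 23.1% were (10.2% higher and 12.8% lower).

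Whether KO cells responded differently from WT cells was tested as the difference of the responses, each averaged over days 5, 16 and 26 relative to its own control. For DAC, only DKK3 passed, with a response larger in KO cells by 0.32 ± 0.09 on the log2 scale (95% interval 0.13 to 0.50, edgeR adjusted p = 0.027), beside 8.82% of all genes called. It was lost without replicate 1 of KO control (0.070), replicate 2 of KO control (0.11) or replicate 2 of WT control (0.13), and without the filter on low counts (0.15). SFRP4 differed by -0.88 (95% interval -1.90 to 0.13) and SFRP2 by 1.54 (-0.18 to 3.26), and neither passed. For DAC+BMN no member passed, beside 14.2% of all genes, and DKK3 came nearest at -0.26 ± 0.09 (edgeR adjusted p = 0.054), which passed with DESeq2 size factors (-0.28, 0.044), upper quartile scaling (-0.28, 0.044) and DESeq2 (-0.28, 0.034). For BMN no member passed, beside 1.23% of all genes, and SFRP4 differed by -0.91 (95% interval -1.66 to -0.16, edgeR adjusted p = 0.23). For DKK1, at 0 in both controls, no difference of responses can be given.

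Across the 20 group means on a log2 scale, SFRP2 and SFRP4 had a Pearson r of 0.57 with each other, and SFRP2 and DKK1 had -0.78. DKK1 and DKK3 had 0.57, SFRP4 and DKK1 -0.60, SFRP2 and DKK3 -0.52, and SFRP4 and DKK3 -0.22. These are descriptions: the groups share lines, drugs and libraries. The genes whose group means ran most like DKK1, among 14850 genes with a symbol and a mean of at least 1 CPM, were C4BPB (r = 0.97), RASGRF1 (0.97) and TRIM58 (0.97). Those most like SFRP4 were CD24P4 (0.97), a pseudogene whose reads may come from its parent gene, ARHGAP6 (0.96) and NIPSNAP1 (0.96). SMARCD3 (0.92), LPAR1 (0.90) and SEMA5A (0.88) ran most like SFRP2, and PNMA2 (0.91), NID2 (0.91) and MT1L (0.91, one of the near-identical metallothionein copies and so uncertain) most like DKK3.

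The other genes of the pathway give the setting in which the antagonists changed. The share of all tested genes called higher and lower, for setting beside the counts of each list, was 13.4% and 13.9% for KO against WT before treatment, 28.5% and 23% for DAC against BMN in KO cells, 23.3% and 19.4% for the same in WT cells, 10.9% and 11.8% for DAC+BMN against DAC in KO cells, and 10.2% and 12.8% for the same in WT cells. Of 19 Wnt ligands, 8 were tested. Before treatment 1 was higher and 3 were lower in KO cells: WNT10A had 25 counts in KO controls and 0 in WT controls, WNT5B had 0 in KO controls and 165 in WT controls, and WNT3 was at 0.192 CPM in KO controls and 7.12 CPM in WT controls (log2 -5.18 ± 0.32). Under DAC relative to BMN, 5 of the 8 ligands were higher and 1 was lower in KO cells (28.5% and 23% of all genes), and 4 were higher and 2 lower in WT cells (23.3% and 19.4%). WNT10A, a ligand of the beta-catenin pathway, was at 6.31 CPM with DAC and 0.365 CPM with BMN in KO cells (log2 4.09 ± 0.24), and at 2.15 and 0.0351 CPM with DAC and BMN in WT cells (log2 5.76 ± 0.40). WNT2B was lower with DAC in WT cells (9.95 and 20.9 CPM with DAC and BMN, log2 -1.37 ± 0.09). Over the ligands with more than 3 counts on both sides the median log2 was 1.36 in KO cells (6 genes) and 0.74 in WT cells (7 genes), beside 0.03 and -0.01 over all tested genes of KO and WT cells. Adding BMN to DAC left 1 ligand higher and 1 lower in KO cells (WNT5A 0.42 ± 0.06 and WNT10A -1.18 ± 0.18), and 3 higher and 1 lower in WT cells, led by WNT2B (-1.58 ± 0.12), WNT5A (1.30 ± 0.06) and WNT7B (0.68 ± 0.07).

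Among 16 other secreted or membrane inhibitors of Wnt signalling, 9 were tested. IGFBP4, a secreted binding protein of insulin-like growth factors that also inhibits Wnt signalling, was at 20.8 CPM with DAC and 0.0845 CPM with BMN in KO cells (log2 7.62 ± 0.22), and at 39.4 and 1.38 CPM with DAC and BMN in WT cells (log2 4.54 ± 0.13). TRABD2B, a membrane protease that cleaves Wnt ligands, was lower with DAC in KO cells (log2 -1.61 ± 0.08) and WT cells (-1.55 ± 0.07), and TPBG was higher (1.52 ± 0.04 in KO cells and 1.39 ± 0.04 in WT cells). In all, 3 of the 9 inhibitors were higher and 3 lower with DAC than with BMN in KO cells (28.5% and 23% of all genes), and 3 higher and 4 lower in WT cells (23.3% and 19.4%), with medians of -0.05 (8 genes with more than 3 counts on both sides) and -0.07 (9 genes). Before treatment 1 was higher and 3 were lower in KO cells, led by TRABD2A (-1.62 ± 0.11), TPBG (0.86 ± 0.07) and IGFBP4, which had 3 counts in KO controls and 72 in WT controls. With DAC+BMN relative to DAC, 1 was higher and 4 were lower in KO cells, led by NOTUM (-1.61 ± 0.28), and 3 higher and 2 lower in WT cells, again led by NOTUM (-0.97 ± 0.22), a secreted enzyme that inactivates Wnt ligands.

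Of 16 Frizzled receptors and co-receptors, 14 were tested, and 6 were higher and 6 lower with DAC than with BMN in KO cells (28.5% and 23% of all genes), and 3 higher and 5 lower in WT cells (23.3% and 19.4%). FZD8 had the largest change in WT cells (2.05 ± 0.11) and also passed in KO cells (2.38 ± 0.11), where the pseudokinase receptor PTK7 led (2.59 ± 0.28). LRP6, which like LRP5 is a co-receptor bound by DKK1, was chosen for mention after its values were seen: it was lower with DAC in KO cells (89.4 and 111 CPM with DAC and BMN, log2 -0.32 ± 0.04) and in WT cells (89.6 and 124 CPM, log2 -0.48 ± 0.04). A link between LRP6 and the DKK1 result was not tested. Before treatment 5 receptors were higher and 3 lower in KO cells, led by PTK7 (-4.78 ± 0.32). With DAC+BMN relative to DAC, 1 was higher and 6 lower in KO cells, and 3 higher and 6 lower in WT cells. Of 7 R-spondins and LGR receptors only LGR4 was tested, and it was higher with DAC than with BMN in KO cells (1.12 ± 0.07) and WT cells (0.81 ± 0.07), and lower in untreated KO than WT cells (-0.66 ± 0.13). Before treatment the calls among receptors numbered 5 when only the control libraries were fitted. All 17 intracellular pathway genes were tested. Of these, 6 were higher and 6 lower with DAC than with BMN in KO cells, where 51.5% of all genes were called, led by TCF7L1 (2.78 ± 0.68) and PYGO1 (1.93 ± 0.12), and 5 and 5 in WT cells, where 42.7% were called, led by the same genes (1.85 ± 0.65 and 0.82 ± 0.09). Untreated, 3 were higher and 5 lower in KO cells, against 1 call in all when only the control libraries were fitted, and with DAC+BMN relative to DAC 5 were higher and 3 lower in KO cells and 3 higher and 5 lower in WT cells.

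Of 14 beta-catenin target and feedback genes, 10 were tested, 3 of which (RNF43, ZNRF3 and NOTUM) are also in the list of inhibitors. With DAC relative to BMN none of the 10 was higher and 6 were lower in KO cells, beside 28.5% and 23% of all genes, led by TNFRSF19 (-0.80 ± 0.05), TCF7 (-0.58 ± 0.08) and SP5 (-0.57 ± 0.17). In WT cells 2 were higher and 5 lower, beside 23.3% and 19.4% of all genes, led by NKD2 (3.25 ± 0.68, 60 counts with DAC and 4 with BMN), TNFRSF19 (-0.96 ± 0.05) and NOTUM (-0.91 ± 0.18). The median log2 was -0.41 in KO cells (9 genes with more than 3 counts on both sides) and -0.32 in WT cells (10 genes). Before treatment 3 were higher and 1 was lower in KO cells: SP5 had 6.94 CPM in KO controls and 1.28 CPM in WT controls (log2 2.44 ± 0.30), TCF7 rose by 1.01 ± 0.14 and LEF1 fell by 1.90 ± 0.16. With DAC+BMN relative to DAC 2 were higher and 2 lower in KO cells, and 3 higher and 2 lower in WT cells, TNFRSF19 falling by 0.47 ± 0.05 in KO cells and by 1.14 ± 0.05 in WT cells.

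**Figure D4:**
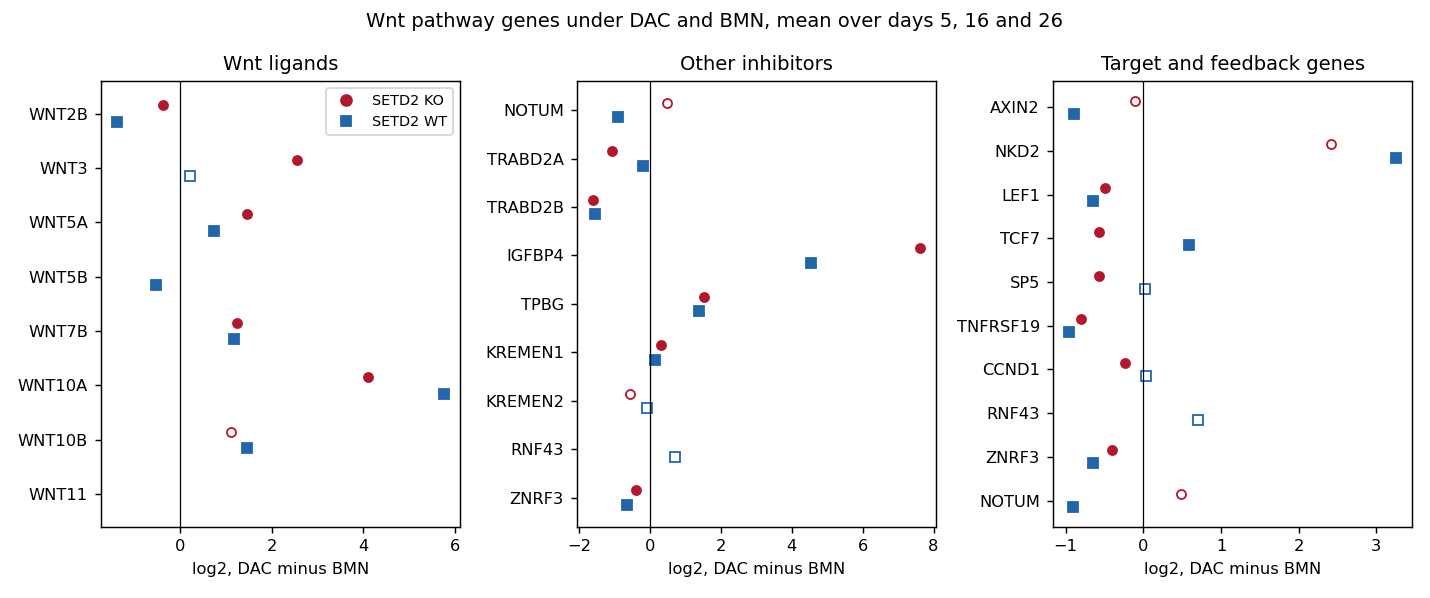
Log2 difference of DAC minus BMN, averaged over days 5, 16 and 26 (horizontal axes), for the tested Wnt ligands, other inhibitors, and target and feedback genes in SETD2 KO (circles) and SETD2 WT cells (squares). Filled symbols passed the test, and values with 3 counts or fewer on either side are not drawn. IGFBP4 lies furthest right at 7.62 in KO cells, and no filled target gene of KO cells lies right of 0.

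Markers of other cell types moved with DAC as well, at low levels. Of 10 blood and endothelial markers 5 were tested. With DAC relative to BMN, CD68, VWF and KDR were higher in KO cells, where 28.5% of all genes were called higher, and CD68, VWF and PECAM1 were higher in WT cells, where 23.3% were. None of the 5 was called lower in either line. VWF and PECAM1 passed the filter on low counts through groups that received DAC, and CD68 mainly so. Part of this direction was therefore built into their being tested. In groups without DAC, VWF reached 0.128 CPM at most and PECAM1 0.0777 CPM at most, both in WT controls. CD14 in KO cells averaged 0.431 CPM with DAC and 0.521 CPM with BMN on day 5. With DAC and BMN it averaged 0.284 and 0.398 CPM on day 16, and 0.343 and 0.729 CPM on day 26. The summed level of the 10 markers lay between 1.37 and 3.94 CPM in the KO groups given DAC+BMN, between 2.09 and 3.61 CPM in those given DAC and between 1.12 and 1.68 CPM in those given BMN, with 1.28 CPM in KO controls. In WT cells it lay between 2.42 and 4.98 CPM with DAC+BMN, between 1.82 and 3.37 CPM with DAC and between 0.754 and 0.827 CPM with BMN, with 0.763 CPM in WT controls. HBB was at 0 throughout, and the part of such transcripts in the changes of DKK1, SFRP4, SFRP2 and DKK3 was not tested.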

How the data were processed

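RNA libraries were made with the KAPA RNA HyperPrep Kit from 1 ug of total RNA, per the labels' protocols. The deposited table holds raw counts per gene for 40 libraries, made by the authors with featureCounts 1.5.0-p1 on the exons of Ensembl 104 (GRCh38), with strand setting 1, mapping quality of at least 20, primary alignments and duplicates ignored, per the file headers. The submitters' processing notes also name FastQC, Trimmomatic and Partek. The deposited length column, in another unit (bases of exon), served for CPM per kb. Symbols came from a gene name table (42028 genes with a symbol).

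All 40 libraries were fitted together with edgeR 4.0.16 (R 4.3.3): 1 mean per group, TMM scaling, filterByExpr by group (minimum count 10; 22527 genes kept), the quasi-likelihood F test, and Benjamini-Hochberg adjustment over all tested genes within each of 32 contrasts, with a threshold of 0.05. Residual degrees of freedom were 20. Log2 values carry the SE from the F statistic and 95% intervals from the fit, and intervals of summed counts are exact (95%). The script was tested on simulated counts. Alternatives were DESeq2 1.42.0, other scalings, no filter, a replicate block, the suffix of alignment names as a term, the libraries of the contrast alone, and leaving out each library.

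The members and gene lists were chosen with earlier results of these data known. From each other list, up to 3 called genes with the largest absolute log2 difference per comparison were eligible to be named, and LRP6 was added after its values were seen. For each tested member the 3 genes with the highest Pearson r over group means were named. The header lists 76 alignments; 40 columns were used. Same-numbered replicates were not taken as pairs: over 190 pairs of groups the correlation of their deviations lay between -0.17 and 0.24, and 10 exceeded 0.1.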

Additional observations from a re-analysis of the deposited data

Results flagged for a closer look

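The level of a member differed between day 26 and day 5 of the same line and treatment in 9 cases, by the test of that difference. DKK3 differed by 0.56 ± 0.08 on the log2 scale in WT DAC, by 1.28 ± 0.08 in WT DAC+BMN, by -0.66 ± 0.08 in WT BMN and by -0.35 ± 0.08 in KO BMN. SFRP2 differed by 2.45 ± 0.90 in KO DAC and by 3.41 ± 0.92 in KO DAC+BMN, resting on 3 and 2 counts on day 5. SFRP4 differed by -0.88 ± 0.26 in WT BMN. DKK1 differed by -1.32 ± 0.48 in WT DAC+BMN and by -4.15 ± 0.60 in KO DAC+BMN. Whether these day differences themselves differ between KO and WT cells was not tested.

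The response of DKK3 to DAC differed between KO and WT cells by 0.32 ± 0.09 on the log2 scale (edgeR adjusted p = 0.027). Day 5 of DAC gave 0.53 ± 0.08 in KO cells and 0.00 ± 0.08 in WT cells, day 16 gave 0.95 ± 0.08 in KO cells and 0.52 ± 0.08 in WT cells, and day 26 gave 0.56 ± 0.08 in both.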

How the results depend on the processing

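With 2 libraries per group and few counts, SFRP2, DKK1 and SFRP4 under DAC carry large counting error. It is as large as many of the differences between DAC+BMN and DAC or between days, and DKK1 folds are bounds. Time in culture and treatment cannot be told apart against the day 0 controls. Counts of all genes called moved by over 1.5 times under several alternatives. When each contrast was fitted on its own libraries they moved to 3181 for KO against WT on day 0, to 2958, 4498 and 2392 for WT DAC on days 5, 16 and 26, to 5127 for WT DAC+BMN day 26, to 0, 0 and 362 for WT BMN on days 5, 16 and 26, to 1493 for day 26 against day 5 of WT DAC, and to 96 and 971 for the KO minus WT responses to BMN and DAC. Fewer libraries and degrees of freedom enter those fits. The members called then numbered 2 for KO BMN day 16 and 1 for KO BMN day 26, 0 and 1 for WT BMN on days 16 and 26, 0 for day 26 against day 5 of KO DAC, and 0 for the KO minus WT response to DAC. Without the filter on low counts, 64 and 1348 genes were called for WT BMN on days 5 and 16 and 751 for the KO minus WT response to BMN, with 1 member for KO BMN day 26 and 0 for the KO minus WT response to DAC. DESeq2 called 71 and 954 genes for WT BMN on days 5 and 16, 0 members for day 26 against day 5 of KO DAC, 1 for the same comparison of WT DAC+BMN, and 1 for the KO minus WT response to DAC+BMN, which was also 1 with DESeq2 size factors and with upper quartile scaling. With the suffix of alignment names as a term, 55 genes were called for WT BMN day 16, and 1 member for day 26 against day 5 of WT DAC+BMN. For the filter, DESeq2, scaling and suffix settings the cause was not tested.

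Leaving out 1 library gave 2806 to 4434 genes called for KO BMN day 16, 779 to 1606 for KO BMN day 5, 2243 to 2722 for day 26 against day 5 of KO BMN, 7 to 3593 for WT BMN day 16, 2103 to 6146 for WT BMN day 26, 15 to 79 for WT BMN day 5, 2144 to 5180 and 2958 to 4988 for day 26 against day 5 of WT BMN and WT DAC, and 83 to 2600, 1274 to 3236 and 1802 to 4722 for the KO minus WT responses to BMN, DAC and DAC+BMN. Members called ranged from 1 to 1 for KO BMN day 26, from 0 to 1 for WT BMN day 16, day 26 against day 5 of KO DAC, DAC+BMN against DAC in KO cells, and the KO minus WT responses to DAC and DAC+BMN, from 1 to 3 for day 26 against day 5 of KO DAC+BMN, and from 1 to 2 for that of WT BMN and WT DAC+BMN and for DAC+BMN against DAC in WT cells.

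With the replicate number as a block no count of calls moved by over 1.5 times, and SFRP4 passed for day 26 against day 5 of KO DAC+BMN (log2 2.19, edgeR adjusted p = 0.045); the mean correlation with same-numbered libraries was positive in 10 of 20 groups, so the numbers are not taken as a pairing. Among log2 values of members, 20 changed sign, none of them called. DKK3 in day 26 against day 5 of KO DAC was -0.01 with DESeq2 size factors (-0.0134), -0.01 with DESeq2 (-0.0133) and -0.02 without the filter (-0.0185), with a leave-one-out range of -0.020 to 0.070. The others changed sign when 1 library was left out. In that contrast SFRP4 ranged from -4.17 to 0.89 and DKK1 from -0.82 to 0.17. SFRP2 ranged from -0.35 to 0.23 in day 26 against day 5 of KO BMN, from -1.09 to 0.12 in KO DAC+BMN day 26, and from -0.79 to 0.079 in WT BMN day 16. In DAC+BMN against DAC, SFRP2 ranged from -0.95 to 1.41 in KO cells and from -0.89 to 0.66 in WT cells, and SFRP4 from -2.20 to 0.28 in KO cells. SFRP4 ranged from -0.45 to 0.13 in day 26 against day 5 of WT DAC, and DKK3 from -0.071 to 0.083 in WT DAC day 5.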
